A study of Mesocricetus auratus with 6 samples.

Results

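The aminoacyl-tRNA synthetases are the enzymes that load each tRNA with its amino acid, and Aimp1 and Aimp2 are scaffold proteins that hold several of them in a complex. They were followed here in the pregnant uterus of the Syrian golden hamster, Mesocricetus auratus, on day 5. The members were chosen by gene symbol: a single symbol made of 1 letter and "ars", with or without a final 1 or 2, or Eprs, Farsa, Farsb, Aimp1 or Aimp2. This gave 28 genes with 51 probe sets, of 12393 genes named on the array. Of these, 20 encode cytosolic enzymes, enzymes that serve both cytosol and mitochondria, or the scaffolds, and 8 encode mitochondrial enzymes (symbols ending in ars2). All 28 have a hamster counterpart in RefSeq (assembly BCM_Maur_2.0), 12 under the same symbol and 16 with a 1 added (Kars is Kars1 there).

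Total RNA of 3 implantation sites, where an embryo lies, was compared with that of 3 interimplantation sites, the segments with no embryo, on an Affymetrix mouse array. The hamsters were untreated, no strain or genotype is given in the labels, and the RNA sets came from 3 animals, per the series' design text. The labels do not say which implantation and interimplantation arrays, if any, share an animal. The comparison asks which transcripts differ between the place of a blastocyst and the uterine wall beside it. In whole tissue, fewer cells of a type and less RNA per cell cannot be told apart.

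As background, protein synthesis needs a charged tRNA for every codon. Animal cells have a set of synthetases for the cytosol and another, encoded by separate nuclear genes, for mitochondria, and a few genes such as Kars and Gars serve both. The enzymes fall into class I and class II, which have unrelated catalytic folds. Several cytosolic enzymes sit in the multisynthetase complex with Aimp1, Aimp2 and Eef1e1. When charging fails, uncharged tRNA activates the kinase Gcn2 (gene Eif2ak4), and the transcription factor Atf4 then raises genes of amino acid supply, synthetases among them. At implantation the uterine stroma around the embryo begins to divide and to turn into decidua.

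Values are log2 signals normalised by robust multi-array averaging (RMA), so a difference is relative to most other probe sets on the array. The mouse probes can mismatch hamster RNA, which lowers a signal and can shrink a difference, so levels of different genes are not compared. The array medians ran from 4.55 to 4.57, and the number of arrays limits the precision. All 28 members were brighter than the median of the 27 probe sets for Bacillus genes (2.68), which hamster RNA does not contain, but 10 exceeded the brightest of them (5.79). Of 7 uterine markers 4 did so (Hoxa10, Hoxa11, Hand2 and Nr2f2), but not Esr1, Pgr or Foxa2. Of 7 trophoblast and embryo markers 1 did (Hand1), but not Cdx2, Eomes or Pou5f1. Hand1 averaged 6.81 in both groups, so it did not tell the sites with an embryo from those without. Markers of other cells moved with the groups. The mean of 13 epithelial markers was 5.15 to 5.27 at implantation sites and 5.43 to 5.56 between them, with 3 lower by the test and 0 higher. The mean of 9 smooth muscle markers was 5.41 to 5.67 against 5.91 to 6.18, with 2 lower and 0 higher. The 2 were Actg2 at −1.74 and Tagln at −1.26, the largest differences of that list. Its differences were negative for 7 markers and positive for 2, Myh11 at 0.06 and Des at 0.13. Of 10 stromal and decidual markers 1 was higher (Wnt4) and 0 lower, and limma called 0 of the endothelial, macrophage, lymphocyte, erythroid and trophoblast markers. Over all genes 1.36% were called higher and 1.18% lower. The 3′ minus 5′ signal of the actin control was 0.15 to 0.49 at implantation sites and 0.50 to 0.58 between them, while that of Gapdh overlapped (−0.55 to −0.46 and −0.73 to −0.26). The part of these differences in the results below was not tested.

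Two-sided limma tests over 22626 probe sets, with Benjamini-Hochberg adjustment, were used throughout, and a gene was called at an adjusted p under 0.05. Each gene was represented by its probe set of highest mean. Of the 20 cytosolic and dual genes, Kars and Farsb rose at the implantation site, 0 fell and 18 were not called, where 1.36% of all genes rose and 1.18% fell. The increases were small, 1.37-fold for Kars and 1.33-fold for Farsb. Their log2 differences, 0.46 and 0.41, lay below the median absolute log2 difference of all called probe sets (0.56). Most of the others leaned the same way without passing: 18 of the 20 differences were positive, where 43.8% of all genes were, and the median log2 difference was 0.11 against −0.02 for all genes. The implantation arrays lay wholly above the interimplantation arrays for 7 of the 20 and wholly below for 0, where these shares were 8.02% and 12.1% over all genes. Before adjustment, 5 of the 20 were higher and 0 lower with p under 0.05, where 6.14% and 8.67% of all genes were.

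Kars encodes lysyl-tRNA synthetase, a class II enzyme of the multisynthetase complex that also serves mitochondria. Its log2 signal was 6.38, 6.30 and 6.04 on implantation arrays 1, 2 and 3 and 5.84, 5.72 and 5.78 on interimplantation arrays 1, 2 and 3. The groups did not overlap, though implantation array 3 lay nearer to the other group than to the rest of its own. The mean rose from 5.78 ± 0.06 to 6.24 ± 0.18 (SD, n = 3), a log2 difference of 0.46 (SE 0.10, 95% interval 0.24 to 0.67, limma adjusted p = 0.0358). It was measured by 1 probe set.

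Farsb encodes the beta subunit of phenylalanyl-tRNA synthetase, which works as a tetramer of alpha and beta subunits. Its signal was 6.05, 5.79 and 5.97 on the implantation arrays and 5.55, 5.60 and 5.44 on the interimplantation arrays, without overlap. The log2 difference was 0.41 (SE 0.09, 95% interval 0.21 to 0.61, limma adjusted p = 0.0415), from 5.53 ± 0.08 to 5.93 ± 0.13 (SD, n = 3). A second of its 4 probe sets was also called, at 0.41 (adjusted p = 0.0302), and the remaining ones were at 0.20 and 0.03 (adjusted p = 0.382 and 0.899). Both called probe sets are of types shared by several transcripts or genes. The second had a mean signal of 3.64, and the one at 0.03, the only unshared one, had 3.71. The probe set that represents Farsb had 5.73, and all of these lay below the brightest Bacillus control (5.79). Farsa, the alpha subunit that carries the catalytic site, was at 0.11 (adjusted p = 0.611). Its groups were separate by a hair, with 5.77 on implantation array 3 and 5.76 on interimplantation array 2.

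**Figure D1:**
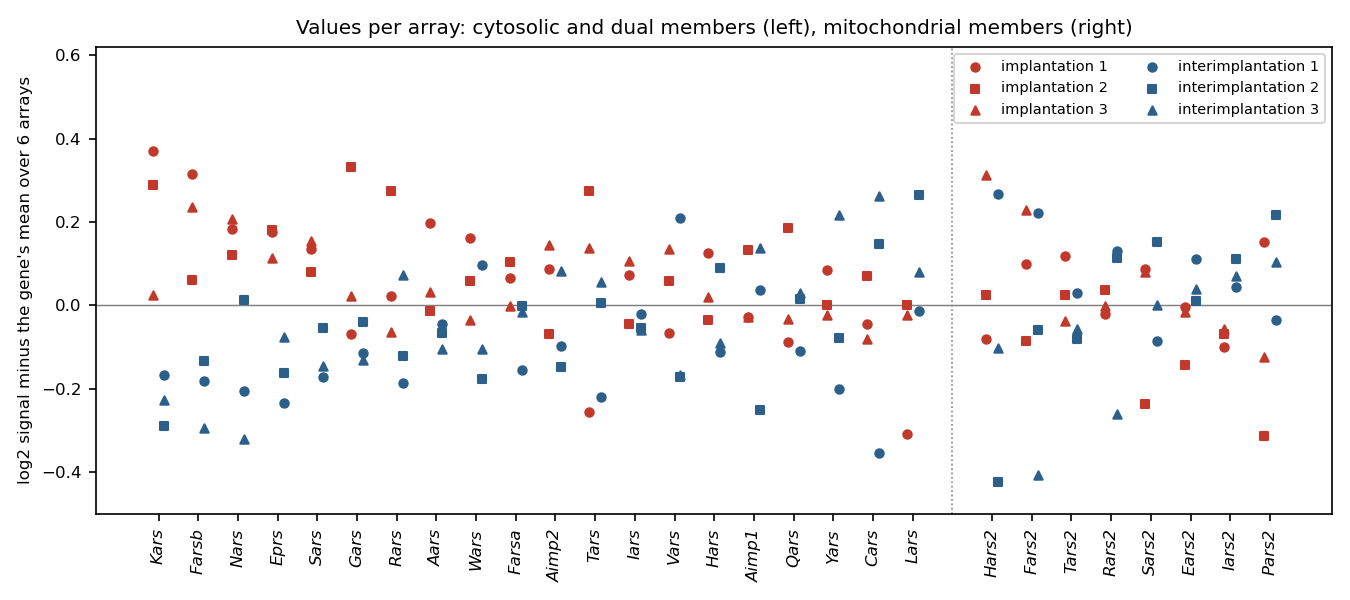
Log2 signal on each of the 6 arrays minus the gene's own mean, for the 20 cytosolic and dual genes (left of the dotted line) and the 8 mitochondrial genes (right), each ordered by difference; colours are groups and symbols replicate numbers. The implantation arrays lie above all interimplantation arrays for 7 genes on the left, and below them for Ears2 and Iars2 on the right.

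The next largest differences were not called, although in several the groups were separate. Nars, asparaginyl-tRNA synthetase, had 6.45, 6.39 and 6.48 on the implantation arrays and 6.06, 6.28 and 5.95 on the interimplantation arrays. The log2 difference was 0.34 (SE 0.10, 95% interval 0.13 to 0.55, limma adjusted p = 0.106). Its second probe set lay at −0.10. Eprs encodes a fused enzyme that charges both glutamate and proline tRNAs. It had 5.18, 5.18 and 5.12 on the implantation arrays and 4.77, 4.84 and 4.93 between the sites, a difference of 0.31 (SE 0.08, 95% interval 0.13 to 0.49, limma adjusted p = 0.0779). Its 2 dimmer probe sets were at 0.14 and −0.13.

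Sars, the seryl enzyme, had 8.01, 7.95 and 8.03 on the implantation arrays and 7.70, 7.82 and 7.73 on the interimplantation arrays, and both of its probe sets were positive with no overlap (0.25 and 0.18). The brighter had an SE of 0.08 and a limma adjusted p of 0.164. Gars, the glycyl enzyme of cytosol and mitochondria, was at 0.19 (SE 0.11, adjusted p = 0.466). Its high value came from implantation array 2, with 4.20, 4.60 and 4.29 against 4.15, 4.23 and 4.14, and the groups overlapped. Without that array the difference was 0.072. Aars, the alanyl enzyme, was at 0.14 (adjusted p = 0.504) and at 0.20 by its other probe set, both without overlap.

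The multisynthetase complex was measured by 9 of its 11 components, counting Eef1e1, which the symbol rule leaves out. The methionyl and aspartyl enzymes were not analysed here. Kars was the component that passed, and 8 of the 9 differences were positive, with a median of 0.11. The 12 cytosolic and dual members outside the complex had 1 call (Farsb), 11 positive differences and a median of 0.12. Over all genes 1.36% were called higher and 43.8% of the differences were positive. Of the scaffolds, Aimp1, also the precursor of a secreted cytokine, was at 0.05 (95% interval −0.18 to 0.28). Aimp2 was at 0.11, and at 0.26 by its dimmer probe set, whose groups did not overlap (adjusted p = 0.158). Eef1e1, the smallest scaffold, was at 0.33 (SE 0.09, limma adjusted p = 0.114), with 4.47, 4.65 and 4.52 against 4.06, 4.31 and 4.28.

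The 2 enzyme classes looked different, although the difference between them was not tested. All 9 measured class II genes (Aars, Farsa, Farsb, Gars, Hars, Kars, Nars, Sars and Tars) were positive, from 0.07 for Hars, the histidyl enzyme, to 0.46 for Kars. Their median was 0.19, and in 6 of the 9 the groups did not overlap, with implantation higher. Over all genes the implantation arrays lay wholly above the others for 8.02% and wholly below for 12.1%. Of the 8 class I genes (Cars, Iars, Lars, Qars, Rars, Vars, Wars and Yars) 6 were positive, with a median of 0.07 and overlapping groups in all 8. Eprs, which joins an enzyme of each class, was counted in neither. Limma called 0 of the 8, and 0 had an unadjusted p under 0.05. Of all genes 1.36% were called higher and 1.18% lower, and 6.14% and 8.67% before adjustment. At these shares, 0 among 8 says little about the class I genes. Their largest increase was that of Rars, the arginyl enzyme, at 0.16 (95% interval −0.08 to 0.39). Without implantation array 2 it was 0.057, and with each other array left out 0.10 to 0.23.

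**Figure D2:**
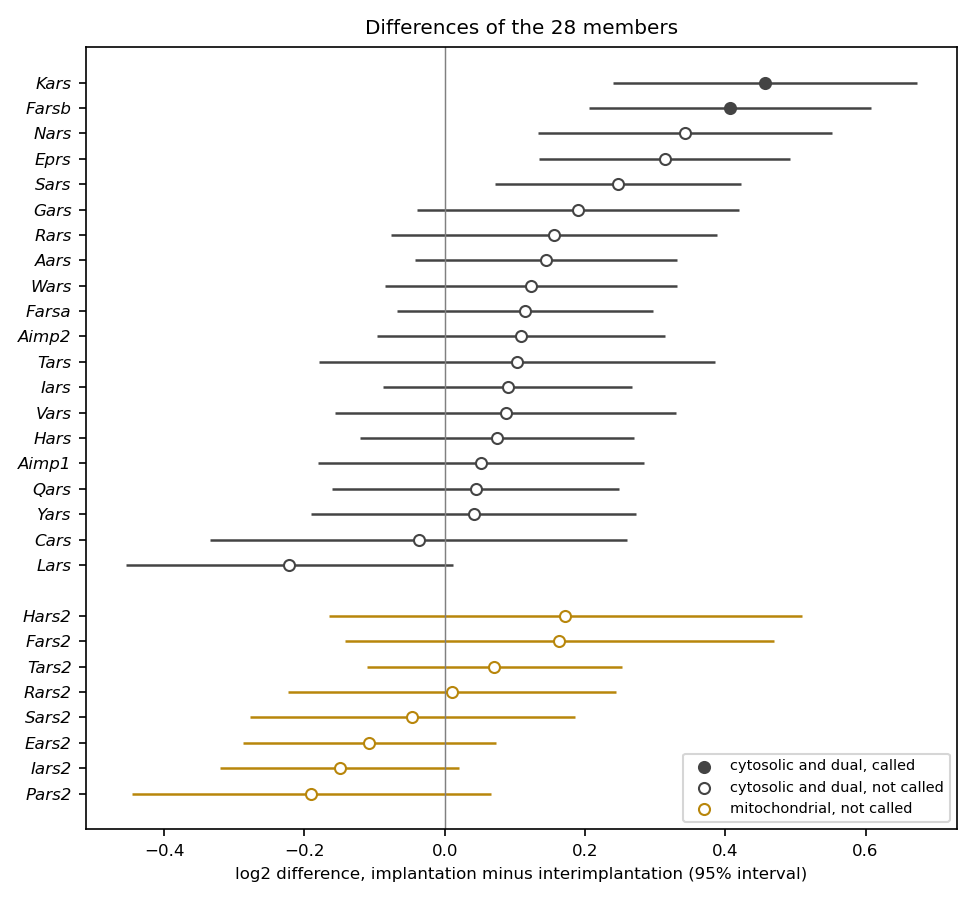
Log2 differences (implantation minus interimplantation) of the 28 genes with 95% intervals of the limma fit; filled points were called. Kars and Farsb are the filled points at 0.46 and 0.41, and the mitochondrial genes run from −0.19 to 0.17, with intervals that all hold 0.

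Lars, leucyl-tRNA synthetase, was the cytosolic gene with the largest decrease. It had 3.37, 3.68 and 3.65 on the implantation arrays and 3.67, 3.94 and 3.76 on the interimplantation arrays, so the groups overlapped. The log2 difference was −0.22 (SE 0.11, 95% interval −0.45 to 0.01, limma adjusted p = 0.388). It was −0.12 without implantation array 1 and −0.14 without interimplantation array 2, and −0.24 to −0.28 with each other array left out. Cars, the cysteinyl enzyme, was at −0.04 by both of its probe sets. For the brighter one the interimplantation arrays were spread from 5.63 to 6.25, around implantation values of 5.91 to 6.06. Wars, the tryptophanyl enzyme known as an interferon-induced gene, had 4 probe sets from −0.06 to 0.31, with 0 called, and the groups of the last did not overlap (adjusted p = 0.178). Vars, Qars and Yars, for valine, glutamine and tyrosine, were at 0.09, 0.04 and 0.04. Iars and Tars, for isoleucine and threonine, were at 0.09 and 0.10.

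The mitochondrial synthetases showed no common direction. Limma called 0 of the 8, and 0 had an unadjusted p under 0.05. Of all genes 1.36% were called higher and 1.18% lower, and 6.14% and 8.67% before adjustment. At these shares, 0 among 8 says little about the mitochondrial genes. The differences were positive for 4 and negative for 4, with a median of −0.02, as for all genes (−0.02). All 8 intervals lay within a 1.5-fold change in either direction, so larger changes of these signals were outside the intervals, with the reservation on mismatched probes above. The same held for 18 of the 20 cytosolic and dual members and for 11827 of all 12393 genes, so it is not particular to these 8. The difference between mitochondrial and cytosolic members was not tested.

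Pars2, the mitochondrial prolyl enzyme, had the largest decrease. It had 5.29, 4.82 and 5.01 on the implantation arrays and 5.10, 5.35 and 5.24 on the interimplantation arrays, a log2 difference of −0.19 (SE 0.12, 95% interval −0.45 to 0.07, adjusted p = 0.525). The groups overlapped, and the difference ran from −0.31 without implantation array 1 to −0.08 without implantation array 2. Iars2, for mitochondrial isoleucine, had 2.83, 2.86 and 2.88 against 2.98, 3.04 and 3.00. Its groups did not overlap, but the difference was −0.15 (SE 0.08, adjusted p = 0.435) at a level close to the Bacillus median. Ears2 charges mitochondrial glutamate tRNA, and glutamine tRNA as a first step. It had 5.24, 5.10 and 5.23 against 5.35, 5.25 and 5.28, a difference of −0.11 (SE 0.08, adjusted p = 0.632), and its other probe sets were at 0.07 and 0.04.

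Hars2 and Fars2, for mitochondrial histidine and phenylalanine, had the largest positive differences of the mitochondrial genes, at 0.17 and 0.16. Both also had the widest spread of these genes over the interimplantation arrays. Hars2 had 4.98, 4.29 and 4.61 on the interimplantation arrays, and Fars2 had 5.33, 5.05 and 4.70. Neither was called (adjusted p = 0.693 and 0.678). With an array left out, Hars2 ran from 0.0026 (without interimplantation array 2) to 0.35 (without interimplantation array 1). Fars2 ran from 0.00087 (without interimplantation array 3) to 0.32 (without interimplantation array 1). Tars2, Rars2 and Sars2, for threonine, arginine and serine, were at 0.07, 0.01 and −0.05.

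The probe sets of a gene did not always agree in direction. Of the 28 genes 15 had more than 1 probe set, 38 in all, and in 8 of the 15 all probe sets shared a sign. In the other 7 (Ears2, Eprs, Hars2, Nars, Qars, Tars2 and Wars) they did not. Over all 51 probe sets, 38 were positive and 3 were called, all higher (1 of Kars and 2 of Farsb), where 1.26% of all probe sets were called higher, 1.05% lower, and 43.5% were positive.

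**Figure D3:**
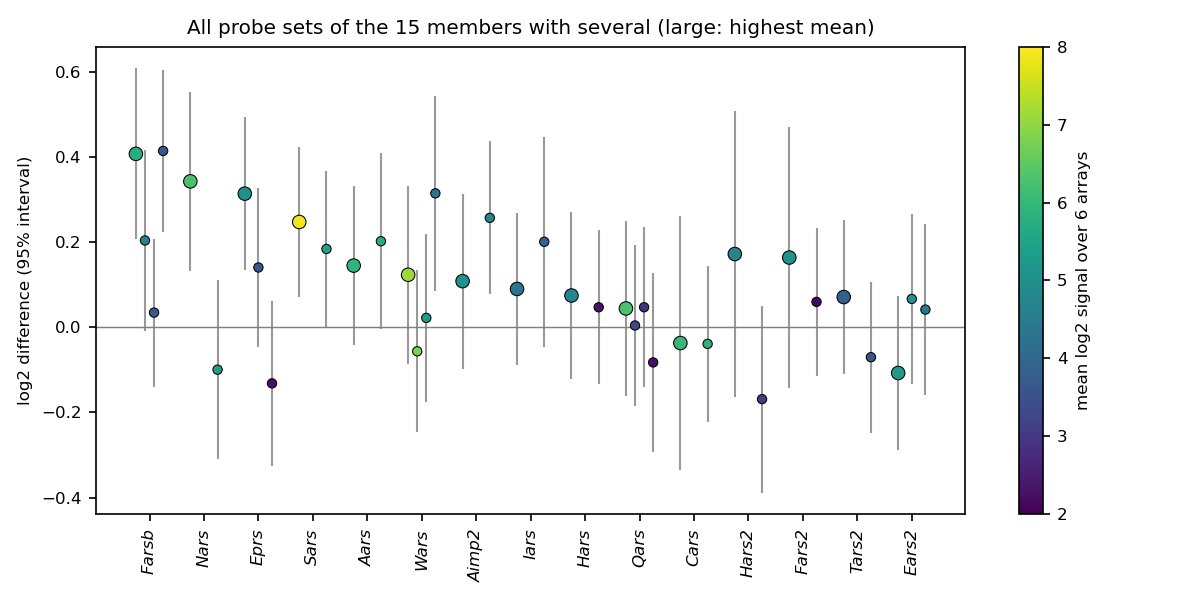
Log2 differences with 95% intervals of every probe set of the 15 genes with several; large points are the probe sets of highest mean that represent the gene, and colour is the mean log2 signal. The 4 probe sets of Farsb run from 0.03 to 0.41, and those of Nars lie on both sides of 0.

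Related genes were described by 5 lists, whose differences from the synthetases were not tested. Among 13 measured partners of tRNA charging (editing enzymes, mitochondrial amidation and formylation, selenocysteine synthesis) limma called 0. Before adjustment 2 were higher and 1 lower with p under 0.05, where 6.14% and 8.67% of all genes were. After adjustment 1.36% of all genes were called higher and 1.18% lower. Their median was 0.11, and 10 of the 13 differences were positive. The smallest p-values were those of Gatc and Eef1e1. Gatc, a subunit of the amidotransferase that completes glutamine tRNA after Ears2, was at −0.38 (SE 0.09, limma adjusted p = 0.0628), with 5.83, 5.73 and 5.95 against 6.35, 6.10 and 6.21.

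Of 10 elongation factors, which carry charged tRNA to the ribosome or move the ribosome on, 1 was called. Eif5a, which relieves ribosomes stalled at proline stretches, rose by 0.93 (SE 0.10, limma adjusted p = 7.09e-04), from 8.84 ± 0.18 to 9.76 ± 0.02 (SD, n = 3). The median of the list was −0.07 with 4 positive differences. Of 55 genes of tRNA processing and modification limma called 0, and before adjustment 1 was higher and 5 lower with p under 0.05. For comparison, 6.14% of all genes were higher and 8.67% lower before adjustment, and 1.36% and 1.18% after it. The median was −0.05. The smallest p-values belonged to Cdkal1, which modifies lysine tRNA, at −0.27 (adjusted p = 0.160), and Tprkb, of the complex that modifies tRNAs for codons starting with A, at −0.36 (adjusted p = 0.180). The groups of both were separate, but 2 dimmer probe sets of Tprkb were at −0.13 and 0.12.

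Of 18 genes of RNA polymerase III and tRNA transcription, 1 rose, where 1.36% of all genes did, and the median was −0.04. That gene was Polr1c, a subunit shared by RNA polymerases I and III, at 0.44 (SE 0.08, limma adjusted p = 0.0173). Its dimmer probe set was at −0.08.

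The amino acid response, the programme of Gcn2 and Atf4 that is known to raise synthetase genes, was measured by 33 genes, transporters and serine synthesis enzymes included. Of these 0 rose and 1 fell, where 1.36% of all genes rose and 1.18% fell. The list had 12 positive differences and a median of −0.01. The gene that fell was Eif2ak4, which encodes Gcn2 itself. It had 4.40, 4.52 and 4.29 on the implantation arrays and 4.72, 4.86 and 5.18 on the interimplantation arrays, without overlap. The log2 difference was −0.52 (SE 0.12, limma adjusted p = 0.0411).

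**Figure D4:**
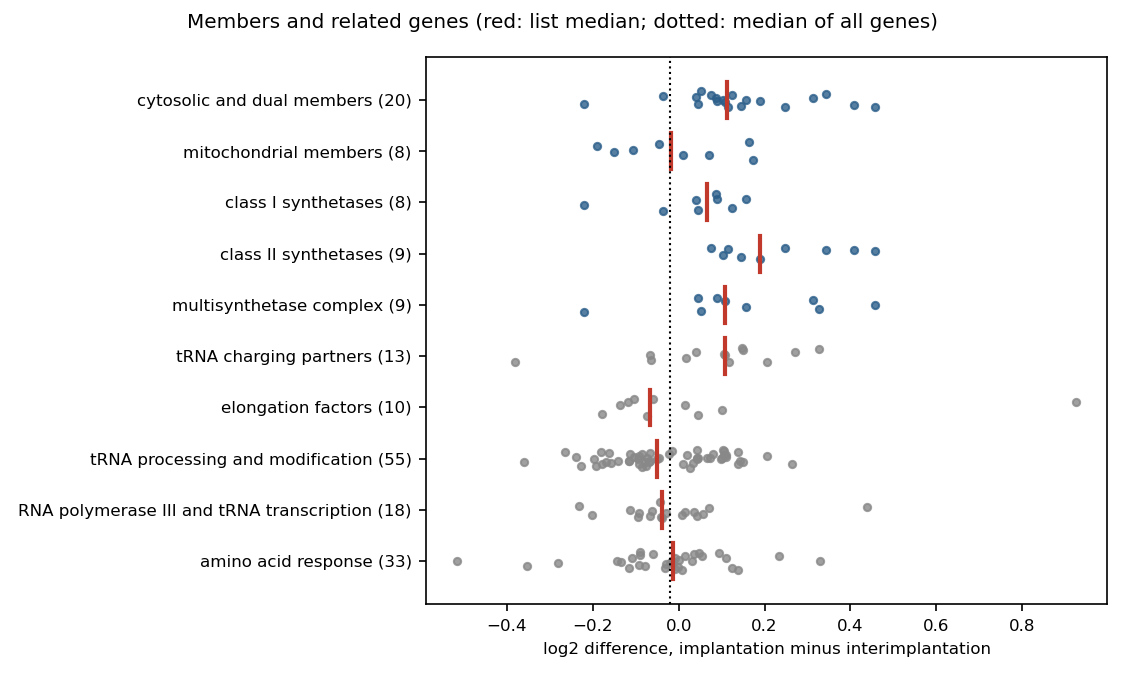
Log2 differences of single genes, by list, with the number of genes in brackets, the list medians as red bars and the median of all genes (−0.02) as a dotted line; vertical scatter within a list has no meaning. The class II genes all lie to the right of 0, and the far right point among the elongation factors is Eif5a at 0.93.

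The calls of Kars and Farsb were near the threshold and were lost when some single arrays were left out. With an array left out the log2 difference ran from 0.39 to 0.56 for Kars and from 0.35 to 0.48 for Farsb. It ran from −0.62 to −0.39 for Eif2ak4 and from 0.39 to 0.49 for Polr1c. A fit with fewer arrays also has less power, so a lost call does not show that the array left out carried the difference. Leaving aside the fit with the replicate number as a block, Kars was called in 9 of 14 alternatives (adjusted p from 0.00598 to 0.181). It was not called without implantation array 1 or 2 (adjusted p = 0.180 and 0.134) or interimplantation array 2 or 3 (0.112 and 0.102). Nor was Kars called when the mean of the hybridisation controls was a covariate (0.181). That mean was 6.45 to 6.77 on the implantation arrays and 6.75 to 7.27 on the others. The covariate is therefore partly confounded with group, and a call lost with it cannot be laid to either. Farsb was called in 7 of the same 14 (adjusted p from 0.0114 to 0.900). It was not called without implantation array 1 or 3 (0.208 and 0.166) or interimplantation array 2 or 3 (0.0682 and 0.142), nor with the covariate (0.163). Its difference was 0.26 as the mean of its probe sets (adjusted p = 0.0733) and 0.03 by the only probe set not shared by several transcripts or genes (adjusted p = 0.900). Nars was called without interimplantation array 2 (0.0424). The call of Eif2ak4 was lost on leaving out implantation array 1, 2 or 3 or interimplantation array 2 or 3 (0.0805 to 0.183), or with the covariate (0.118). Polr1c was not called without implantation array 1 or 3 or interimplantation array 3 (0.0918, 0.102 and 0.0612), or with the covariate (0.106). As the mean of its probe sets Polr1c was at 0.18 (0.322). Eif5a was called in each of the 13 of these alternatives that kept a probe set for it.

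The directions are also relative to the scale. The 18 hybridisation control probe sets, added to every sample in equal amount by design, averaged 6.45 to 6.77 on the implantation arrays and 6.75 to 7.27 on the others. Scaling each array to them moved the median difference of all genes from −0.02 to 0.38. All 28 members were then positive, Eprs and Nars were called besides Kars and Farsb, and Eif2ak4 was at −0.12 (adjusted p = 0.603). With either scale 18 of the 20 cytosolic and dual members and 4 of the 8 mitochondrial members lay above the median of all genes. This scaling moves the difference of every gene by the same amount, so these counts could not change and do not test the scale.

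**Figure D5:**
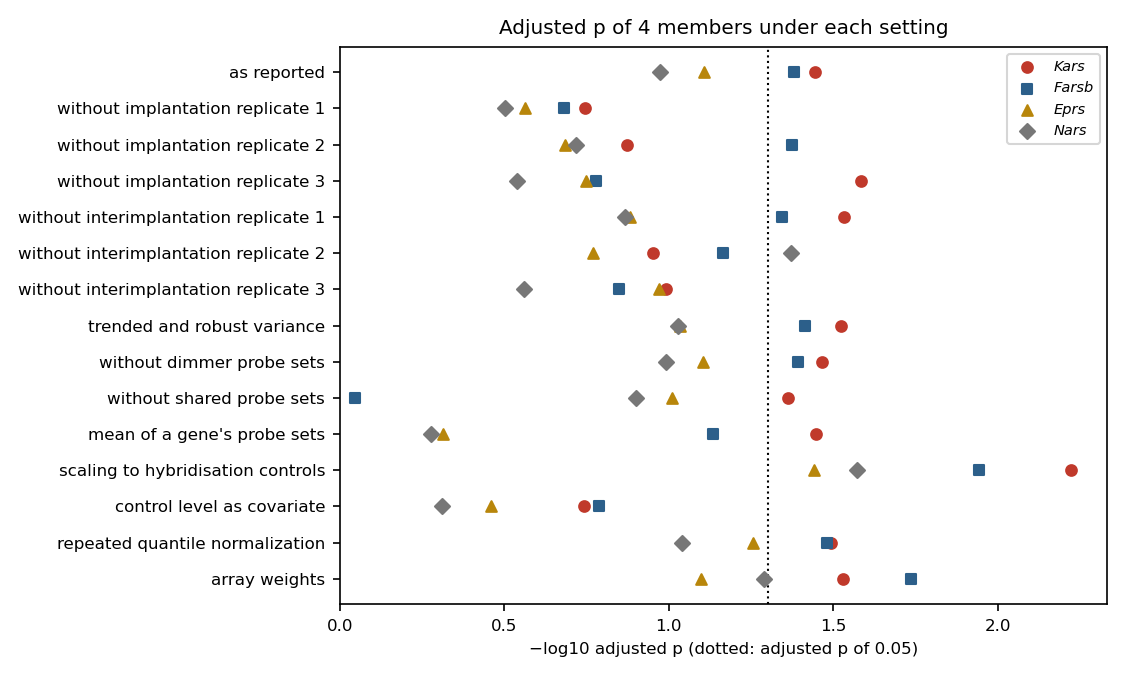
Adjusted p of Kars, Farsb, Eprs and Nars as −log10, for the reported fit and each alternative but that with the replicate number as a block. Points to the right of the dotted line were called. Kars and Farsb fall to its left without several single arrays and with the covariate, and all 4 lie to its right with scaling to the hybridisation controls.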

How the data were processed

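The authors deposited 1 log2 value per probe set and array, made with Partek 6.6 and RMA per the submitters' processing notes; the order of steps and the log base are not given there, so base 2 is taken from what RMA usually gives and from the values' range. Of 22690 probe sets, 64 controls were left out. Names came from the platform annotation, and probe sets with several symbols (691) or none (1555) named no gene. Group means were compared with limma 3.58.1 in R 4.3.3 (lmFit and eBayes, group as the only term, no filter on level), adjusted over 22626 probe sets and tested on simulated data. Related genes came from 5 lists: tRNA charging partners, elongation factors, tRNA processing and modification, RNA polymerase III and tRNA transcription, and amino acid response. Of each, the called genes, or else the 2 with the smallest p, were named; of the members, all were. Alternatives were array left out, replicate number as a block, trended and robust variance, filters on dim or shared probe sets, probe sets averaged per gene, control scaling or covariate, quantile normalization and array weights. The members and lists were chosen with earlier results of these data known. Sequences of promoters and proteins were not analysed here. Where nothing says more than that the RNA came from 3 animals, p-values measure the spread between these arrays.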

Additional observations from a re-analysis of the deposited data

How the results depend on the processing

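The 15 alternatives left 0 mitochondrial genes called in either direction and 0 cytosolic and dual genes called lower. Without shared probe sets 18 of the 20 cytosolic and dual genes and 6 of the 8 mitochondrial genes were left to test. The 2 higher cytosolic and dual calls became 4 with scaling to the hybridisation controls, 1 without shared probe sets, 1 with probe sets averaged per gene, 0 with the mean of those controls as a covariate, and 0 to 2 with an array left out. Whether same-numbered arrays share an animal is not known from the labels. Deviations from the group means of same-numbered arrays correlated at −0.090, 0.071 and −0.028, and not every array correlated best with its own number. With so few arrays per group, such correlations cannot decide whether the numbers pair the samples. With the replicate block 1 was called (Kars, with Farsb at adjusted p = 0.0575).

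The related genes, 2 higher and 1 lower, became 4 and 0 with control scaling and 1 and 0 with the covariate. Without shared probe sets they were 1 and 0, but only 111 of the 129 genes were left. Eif5a and Eif2ak4 had no probe set there, so their calls were not tested by it. With the mean of probe sets 1 was higher and still 1 lower. With an array left out 1 to 2 were higher and 0 to 3 lower. The median of the cytosolic and dual members was 0.51 with control scaling, 0.16 with the covariate and 0.10 to 0.15 with an array left out. That of the mitochondrial members was 0.38 with control scaling and −0.086 to 0.027 with an array left out. Over the 6 mitochondrial members left without shared probe sets it was −0.10.

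Signs turned only for genes that were not called. With control scaling Cars was at 0.36, Sars2 at 0.35, Ears2 at 0.29, Iars2 at 0.25, Pars2 at 0.21, Lars at 0.18, Cdkal1 at 0.13, Tprkb at 0.036 and Gatc at 0.015. With the covariate Qars was at −0.10, Tars at −0.10, Rars2 at −0.036 and Hars at −0.0068. Without shared probe sets Hars2 was at −0.17, Qars at −0.083 and Ears2 at 0.066. Ears2 was at 6.78e-05 with the mean of its probe sets, and Yars at −0.012 with array weights. With an array left out the ranges crossed 0 for Cars (−0.22 to 0.085), Aimp1 (−0.061 to 0.13), Qars (−0.038 to 0.099), Rars2 (−0.12 to 0.079), Sars2 (−0.10 to 0.061), Tars (−0.0075 to 0.26) and Yars (−0.048 to 0.16). Beyond the alternatives' own construction, the cause was not tested. Signals not above the brightest Bacillus control, as for 18 of the 28 members, limit what these arrays can show. All 28 exceeded the median of those controls.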

Other observations

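Across the members the 6 arrays differed within their groups as well. The median deviation of the 20 cytosolic and dual genes from their own means was 0.08, 0.08 and 0.02 on implantation arrays 1, 2 and 3 and −0.13, −0.06 and −0.07 on interimplantation arrays 1, 2 and 3. For the 8 mitochondrial genes it was 0.04, −0.08 and −0.01 against 0.08, 0.06 and −0.03. Interimplantation array 1 thus held the lowest value of the cytosolic and the highest of the mitochondrial genes. The class II genes were at 0.14, 0.11 and 0.03 on the implantation arrays and −0.17, −0.04 and −0.13 on the others, without overlap, whereas the class I genes overlapped (−0.01, 0.06 and −0.03 against −0.07, −0.07 and 0.05).

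In the amino acid response list, Chac1, a glutathione-degrading enzyme that Atf4 is known to raise, had the largest positive difference, at 0.33 (SE 0.08, limma adjusted p = 0.0731), with 4.99, 5.03 and 4.97 against 4.61, 4.61 and 4.78. It was chosen for mention after its values were seen.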
